A study of Mus musculus with 4 samples.

Results

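Dense Slug regions are places in the mouse genome where at least 3 called binding peaks of the transcription factor Slug follow each other closely. They were found by sorting the Slug peaks of each autosome by midpoint and chaining neighbours whose midpoints lay 5 kb or less apart. Chains of 3 or more peaks were kept, and each ran from the start of its first peak to the end of its last. This gave 485 regions that held 1551 of the 40323 Slug peaks on the 19 autosomes, or 3.85% (Wilson 95% interval 3.66 to 4.04%). The Slug list had 41612 peaks in all. The regions were chosen by the positions of the Slug peaks themselves, so the number, spacing and scores of their peaks are given as a description, without a test.

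Slug was mapped by chromatin immunoprecipitation and sequencing (ChIP-seq) in pBl.1G, an epithelial line with high Slug. Its relative Snail was mapped in the mesenchymal line pBl.3G, labelled high for Snail, which gave 28375 peaks. Both are MMTV-PyMT mouse breast cancer lines, in which a mammary tumour virus promoter drives the polyoma middle T oncogene, and both were grown with 5% adult bovine serum and fixed in 1% formaldehyde for 10 min. There was 1 library of each factor, made with the rabbit antibody C19G7 against Slug and with an antibody labelled as directed at both SNAIL and SLUG, so factor, antibody and cell line cannot be told apart. The 2 input DNA libraries of these lines were not analysed here. Positions are on mm10. A score is the value that the authors' peak caller gave a peak, and it ranks peaks only within its own list. Intervals are Wilson 95% intervals and cover counting error only. Neighbouring Slug peaks can touch the same Snail peak, so they are not independent of each other.

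Slug, encoded by Snai2, and Snail, encoded by Snai1, are zinc finger proteins that bind the E-box, a short DNA word of the form CANNTG, and most often CAGGTG. Both are known as repressors of epithelial genes, with E-cadherin as the textbook target, and as drivers of the epithelial-mesenchymal transition (EMT). In the mammary gland Slug is also known for its role in basal and stem-like cells. A factor of this family can meet several E-boxes within a few kilobases of 1 gene.

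Sequence could be read where a member peak reached the promoter window of a gene, which spans the 250 bases before and the 50 bases after an annotated start. Of 31396 such autosomal windows from RefSeq on GRCm38.p6, the assembly of mm10, 42 windows of 41 genes overlapped a member peak. CAGGTG or its reverse complement CACCTG was present in 20 of those 42 windows (47.6%, 33.4 to 62.3%). It was present in 39.1% (36.1 to 42.1%) of the 993 windows that overlapped another Slug peak only, in 19.8% (19.4 to 20.3%) of the windows without a Slug peak, and in 20.5% of all windows. The share in member windows was thus above that of windows without a Slug peak, and its interval covered the share at other Slug peaks. The looser word CANNTG, which contains the first 2, stood in 36 of the 42 windows (85.7%, 72.2 to 93.3%), against 72.2% of all windows. At other Slug peaks the share was 73.8% (71.0 to 76.5%). The interval of the member windows covers that share and reaches down to the share of all windows. A Snail peak overlapped 28 of the 42 windows (66.7%, 51.6 to 79.0%) and 80.3% (77.7 to 82.6%) of those at other Slug peaks.

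The sequences below are the parts of 8 of these windows that lay before the gene's start and inside a member peak. They were chosen after their values were seen, to show members with several matches to CAGGTG or CACCTG, with 1 and with none, and with and without a Snail peak. Each is RefSeq sequence of GRCm38.p6 written 5′ to 3′ on the strand of its gene. Capitals mark CAGGTG or CACCTG. A match describes these letters and is not a measured site.
Ap1m2, chr9:21312334-21312583, minus strand: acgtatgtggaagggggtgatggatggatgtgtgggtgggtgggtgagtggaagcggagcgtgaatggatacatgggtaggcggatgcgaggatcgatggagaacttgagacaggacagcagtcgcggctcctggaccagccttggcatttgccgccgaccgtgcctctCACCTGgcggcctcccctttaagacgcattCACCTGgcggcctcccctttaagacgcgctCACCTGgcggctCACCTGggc
Tincr, chr17:56554388-56554560, minus strand: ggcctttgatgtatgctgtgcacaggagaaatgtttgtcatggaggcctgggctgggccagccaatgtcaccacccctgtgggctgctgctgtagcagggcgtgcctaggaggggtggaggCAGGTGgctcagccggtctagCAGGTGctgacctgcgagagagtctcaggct
Cldn4, chr5:134946935-134947089, minus strand: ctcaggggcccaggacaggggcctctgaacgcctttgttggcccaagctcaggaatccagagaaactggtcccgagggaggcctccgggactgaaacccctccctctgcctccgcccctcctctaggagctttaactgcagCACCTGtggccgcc
Pnpla2, chr7:141454938-141455187, plus strand: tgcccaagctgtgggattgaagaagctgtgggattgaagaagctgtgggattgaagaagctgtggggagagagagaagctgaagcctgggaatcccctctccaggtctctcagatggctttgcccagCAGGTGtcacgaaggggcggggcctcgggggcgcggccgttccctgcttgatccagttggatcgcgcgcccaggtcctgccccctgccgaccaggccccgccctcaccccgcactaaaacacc
Syvn1, chr19:6046326-6046556, plus strand: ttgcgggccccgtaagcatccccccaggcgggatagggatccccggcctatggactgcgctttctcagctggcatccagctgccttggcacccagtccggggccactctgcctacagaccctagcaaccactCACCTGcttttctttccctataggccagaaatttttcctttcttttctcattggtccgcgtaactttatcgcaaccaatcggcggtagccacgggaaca
Mthfsd, chr8:121108338-121108587, minus strand: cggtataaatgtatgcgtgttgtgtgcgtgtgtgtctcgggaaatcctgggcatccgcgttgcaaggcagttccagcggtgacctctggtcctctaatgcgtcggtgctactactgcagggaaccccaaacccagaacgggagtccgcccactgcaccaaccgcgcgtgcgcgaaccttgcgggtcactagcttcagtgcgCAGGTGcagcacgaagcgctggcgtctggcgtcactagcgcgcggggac
Zbtb7b, chr3:89393458-89393628, minus strand: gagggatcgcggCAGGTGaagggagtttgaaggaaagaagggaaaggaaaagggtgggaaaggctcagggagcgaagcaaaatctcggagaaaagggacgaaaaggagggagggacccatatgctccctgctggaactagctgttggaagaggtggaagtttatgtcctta
Gstm6, chr3:107953467-107953620, minus strand: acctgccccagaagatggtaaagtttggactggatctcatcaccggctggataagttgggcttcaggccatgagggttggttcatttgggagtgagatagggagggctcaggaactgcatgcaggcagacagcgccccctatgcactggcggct

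The first 3 belong to epithelial genes, and their member peaks did not overlap a Snail peak. Ap1m2 encodes the adaptor subunit that sorts proteins to the basolateral membrane of epithelial cells, and its 250 bases hold 4 such matches. The peak over it scored 97.8, and the other 2 peaks of its region scored 86.7 and 58.8. Tincr, a gene of epidermal differentiation, holds 2 in 173 bases under a peak of 192, the highest of the region's 3. Cldn4, which encodes the tight junction protein claudin-4, holds 1 in 155 bases under a peak of 94.9. In these 3 genes the peak at the start was thus the strongest of the region in Ap1m2 and Tincr and not in Cldn4.

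The other 5 stretches lay under Slug peaks that also overlapped a Snail peak. Pnpla2, which encodes the main triglyceride lipase of fat stores, holds 1 match in 250 bases under a Slug peak of 193. Syvn1, an E3 ubiquitin ligase of the endoplasmic reticulum, holds 1 in 231 bases under a peak of 126. Mthfsd, whose region lies 7.11 kb from the EMT factor gene Foxc2, holds 1 in 250 bases under a peak of 114. The transcription factor gene Zbtb7b holds 1 in 171 bases under a peak of 79.1. Gstm6, a glutathione transferase gene, holds neither CAGGTG nor CACCTG in 154 bases under a peak of 74.3, though it holds 1 CANNTG.

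Most regions were short runs of 3 peaks. There were 410 regions of 3 peaks (84.5%), 62 of 4, 6 of 5, 6 of 6 and 1 of 7, beside 3436 chains of only 2 peaks and 31900 Slug peaks with no neighbour within 5 kb. The median region spanned 4.49 kb (quartiles 2.16 and 6.25 kb), with a shortest of 0.481 kb and a longest of 16.5 kb, and all regions together covered 2185 kb. Within regions the median distance between neighbouring midpoints was 1.5 kb (quartiles 0.505 and 3.21 kb). The distances had 2 parts, a pile-up under 1 kb and a flat stretch up to the limit of 5 kb. Of all 1066 neighbouring pairs, 267 (25%) had edges 200 bp or less apart. All gaps were this small in 52 regions (10.7%). Whether such pairs are 1 broad peak that the caller split was not tested.

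**Figure D1:**
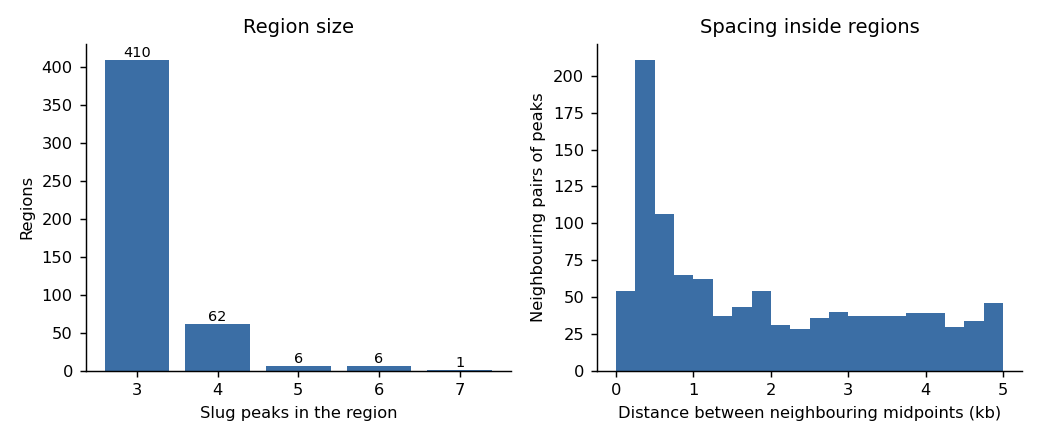
Left, number of dense Slug regions (vertical axis) by the number of Slug peaks in them (horizontal axis), with the count over each bar. Right, number of neighbouring pairs of member peaks by the distance between their midpoints in kb, in steps of 0.25 kb. Regions of 3 peaks make up 410 of 485, and the pairs pile up under 1 kb.

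The member peaks were ordinary in score. Their median score was 83.1 (quartiles 60.1 and 132), beside 81.2 (quartiles 59.0 and 150) for the other autosomal Slug peaks. They were somewhat wider, with a median width of 241 bp beside 206 bp. Inside a region the highest score was a median 2.23 times the lowest, and at most 20.1 times. In 54 regions (11.1%) every peak lay below the median of the autosomal list. Only 1 region held any of the 100 highest-scoring Slug peaks, all of which scored at least 1504. The strongest peak was the first in 154, the middle in 122 and the last in 134 of the 3-peak regions, counted along the chromosome.

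The 5 kb limit does not fall in a break of the distances. The 16 regions whose largest gap lay between 4.9 and 5 kb had a median mean score of 91.4. A limit of 5.1 kb would have added 19 regions with a median mean score of 97.5. At 5.5 kb there would have been 594 regions.

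Regions lay across gene ends, inside genes and between genes. Of the 485, 303 (62.5%, 58.1 to 66.7%) touched an annotated gene and 242 (49.9%, 45.5 to 54.3%) touched a protein-coding one. Wholly inside 1 gene span lay 211. At the other extreme, 55 regions (11.3%, 8.82 to 14.5%) touched no annotated gene of any kind and lay more than 100 kb from any protein-coding one. The genes touched comprised 251 protein-coding genes, 74 lncRNA genes and 22 pseudogenes, with a few of other kinds. The annotation used gives no exons, so intron and exon positions are not stated.

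Member peaks lay at gene ends a little more often than the other Slug peaks. A gene end is either edge of an annotated gene, 1 of which is its start. The midpoint was within 1 kb of a gene end for 203 of 1551 member peaks (13.1%, 11.5 to 14.9%) and for 3827 of 38772 others (9.87%, 9.58 to 10.2%). Away from the ends, 45.2% (42.7 to 47.7%) of members lay inside a gene, against 49.8% (49.3 to 50.3%) of the others. Between genes the shares were 41.7% (39.3 to 44.2%) and 40.3% (39.8 to 40.8%), and these intervals overlap. With protein-coding gene ends alone, the share of members near an end was 6.71%, and the share of the others was not computed.

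Snail, in the other cell line, overlapped member peaks more often than other Slug peaks. A Snail peak overlapped 370 of the 1551 members by at least 1 bp (23.9%, 21.8 to 26.0%), against 4572 of the 38772 others (11.8%, 11.5 to 12.1%). The difference was 12.1 percentage points (9.98 to 14.3). It was 7.45 points when peaks 200 bp or less apart were merged before chaining, and 1.98 points (0.920 to 3.26) when each peak of a pair had to cover at least 50% of the other. Snail peaks were wider than Slug peaks, with an autosomal median of 722 bp. With 1 library of each factor there is no estimate of the spread between replicates and no test across conditions.

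The share grew with the length of the chain. It was 10.7% (10.4 to 11.1%) of the 31900 single peaks, 16.7% (15.8 to 17.6%) of the 6872 peaks in pairs, 20.5% (18.3 to 22.8%) of the 1230 in chains of 3, 31.0% (25.6 to 37.1%) of the 248 in chains of 4 and 56.2% (44.8 to 67.0%) of the 73 in longer chains. Peak width rose along the same order, with medians of 203, 218, 235, 261 and 295 bp. The share of peaks near a gene end was 9.37, 12.2, 12.8 and 15.7% (11.7 to 20.8%) up to chains of 4. In longer chains it was 9.59% (4.72 to 18.5%), an interval that covers each of the earlier shares. The 73 peaks of the longer chains came from only 13 chains, several of them below 3.5 Mb. Peaks of 1 chain are not independent, so both intervals for this class are too narrow.

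**Figure D2:**
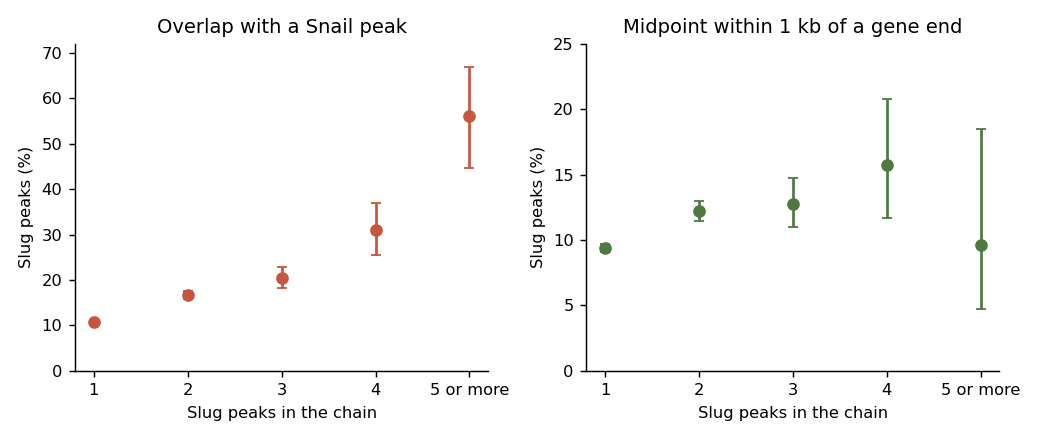
Share of autosomal Slug peaks in percent (vertical axes) that overlap a Snail peak (left) or lie with their midpoint 1 kb or less from a gene end (right), by the number of peaks in their chain. Points are shares and bars Wilson 95% intervals. The left share climbs from 10.7% to 56.2%. The right share climbs from 9.37% for single peaks to 15.7% for chains of 4 and is 9.59% for the 13 chains of 5 or more.

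The difference from other Slug peaks was seen away from gene ends and not at them. Near an end, 84 of 203 members (41.4%, 34.8 to 48.3%) and 1576 of 3827 others (41.2%, 39.6 to 42.7%) overlapped a Snail peak. Elsewhere the shares were 286 of 1348 (21.2%, 19.1 to 23.5%) and 2996 of 34945 (8.57%, 8.28 to 8.87%). Gene ends thus had the highest Snail overlap in both sets, with nearly the same share in each.

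The difference was also present within classes of peak width or of score, 5 equal classes of the autosomal list for each. Width and score were classed separately and not jointly. Among the narrowest peaks, up to 158 bp, 11.7% of members and 5.62% of others overlapped a Snail peak. Among the widest, from 273 to 5949 bp, the shares were 38.5% (34.5 to 42.6%) and 26.5% (25.6 to 27.6%). This open class held 214 of the 370 members that overlapped Snail, and widths inside it were not matched. The mean difference over the 5 width classes was 7.86 points and that over the 5 score classes 12.5 points. In the lowest score class the shares were 13.5% and 8.27%, and in the highest 39.3% (33.2 to 45.8%) and 17.9% (17.1 to 18.8%). Members were above the others in each of the 10 classes.

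Seen by region, 220 of the 485 (45.4%, 41.0 to 49.8%) overlapped a Snail peak anywhere in their span. In 25 of them the Snail peak lay only between the Slug peaks. Every member overlapped a Snail peak in 42 regions (8.66%, 6.47 to 11.5%), and 28 of these 42 touched no protein-coding gene. No member did in 290 regions (59.8%, 55.4 to 64.1%). The regions held 298 Snail peaks with a median score of 133, beside 150 for all autosomal Snail peaks, and 91 of the 256 Snail peaks that overlapped a member overlapped at least 2.

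Dense Snail regions were found by the same chain rule in the Snail list. There were 362 of them with 1143 of 27796 autosomal Snail peaks (4.11%, 3.88 to 4.35%), and the largest held 12 peaks. A dense Slug region overlapped 24 of them, which is 4.95% of the Slug regions and 6.63% of the Snail regions, and any Slug peak overlapped 157 (43.4%, 38.4 to 48.5%). Members of dense Snail regions lay within 1 kb of a gene end in 43.9% (41.1 to 46.8%) of cases, beside 43.1% (42.5 to 43.6%) of the other autosomal Snail peaks, and these intervals overlap.

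Among the 10 regions with the most peaks, 8 touched no protein-coding gene and 3 had a Snail peak at every Slug peak. The 1 region of 7 peaks lies on chromosome 18 between the zinc finger gene Sall3 and the galanin receptor gene Galr1, 222 kb from Galr1, at chr18:82160856-82170960. Its Slug scores in order along the chromosome were 58.7, 50.9, 58.3, 54.8, 93.4, 117 and 101. All 7 were low to moderate in the list, and 5 of them overlapped a Snail peak, the outer ones on both sides. A region of 6 at chr18:3004214-3011321 had the steepest profile, with scores of 89.8, 93.4, 428, 1205, 69.2 and 60.1. Its first 5 peaks lay under 1 Snail peak, and the sixth, 4.73 kb further on, did not overlap Snail.

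The end of chromosome 2 carried 2 such regions close together. The region of 6 peaks at chr2:181928298-181931454, between the RNA polymerase III subunit gene Polr3k at 57.5 kb and the predicted gene Gm40035 at 15.0 kb, had scores of 93.5, 78.5, 550, 217, 201 and 274. All 6 overlapped a Snail peak. Its neighbour at chr2:181917275-181919287, over the predicted gene Gm40034, had 4 peaks of 439, 1072, 399 and 65.5 under a single Snail peak. No protein-coding gene was touched by either, and the part of repeats in them was not tested.

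**Figure D3:**
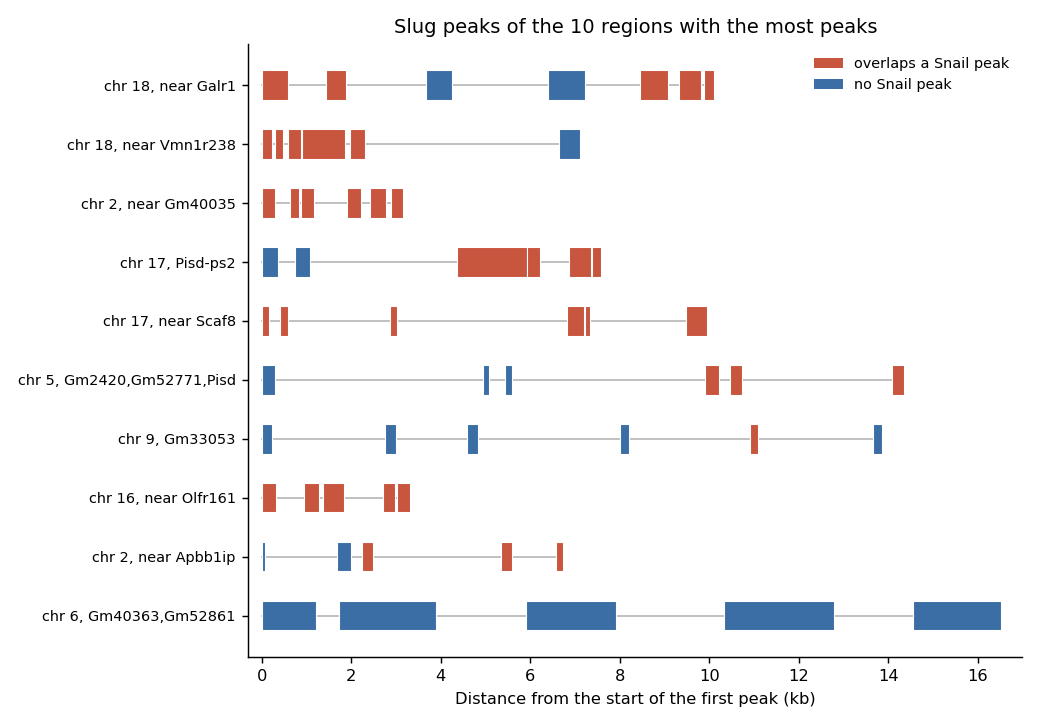
Positions of the Slug peaks in the 10 regions with the most peaks, as distance from the start of the first peak in kb (horizontal axis), 1 region per line named by the genes it touches or the next protein-coding gene. Block width is peak width, and red blocks overlap a Snail peak while blue ones do not; the lines for chr 16 and for 2 other regions are red throughout, and the lowest line is blue throughout.

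Copies of 1 gene made up a further group. A dense region touched Pisd, which encodes the mitochondrial enzyme that makes phosphatidylethanolamine, and each of its pseudogenes Pisd-ps1 and Pisd-ps2, on chromosomes 5, 11 and 17. The region at Pisd crossed an end of the gene and lay largely outside it, over the pseudogene Gm2420 and the lncRNA gene Gm52771. It had 6 peaks with scores of 57.2, 84.7, 114, 75.3, 148 and 71.3, of which the last 3 overlapped a Snail peak. The region at Pisd-ps2 had 6 peaks of 90.1, 52.4, 486, 60.2, 132 and 135, of which the last 4 did. The region at Pisd-ps1 had 4 peaks of 52.2, 63.9, 61.4 and 153, and none did. Reads from such near-identical copies can be placed at the wrong copy, so these 3 regions are uncertain.

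The remaining regions in the group of 10 differed in width and in Snail. At chr9:59179216-59193066, over the lncRNA gene Gm33053, 6 narrow peaks of 51.4, 97.2, 182, 58.4, 72.5 and 80.3 were spread over 13.9 kb and only the fifth overlapped Snail. At chr2:22738250-22744989, between the GABA-synthesising enzyme gene Gad2 and Apbb1ip, the 5 scores were 145, 52.2, 114, 235 and 376, and the last 3 overlapped Snail. At chr6:47737129-47753656, over the predicted genes Gm40363 and Gm52861, 5 peaks of 1214 to 2440 bp scored 52.2, 442, 145, 94.4 and 174. No Snail peak lay in the region. The 5 peaks at chr16:3113437-3116761 scored 194, 109, 574, 487 and 301, and the 6 at chr17:3020121-3030073 scored 131, 175, 141, 113, 56.3 and 210. All 11 overlapped Snail.

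The highest mean score belonged to 4 peaks at chr2:98662155-98667352, 1030 kb from the nearest protein-coding gene, Lrrc4c, with scores of 2763, 901, 1146 and 3100. It was the 1 region with peaks among the 100 highest, and each of its peaks had its own Snail peak, with Snail scores of 1781, 727, 286 and 3130. The 4 regions next in mean score lay at chr10:3109403-3117233, chr17:13586153-13591627, in Gm40034 and at chr3:8245144-8246584. In all 5 every Slug peak overlapped a Snail peak, and none touched a protein-coding gene. No map of repeats and no input library was used here, so whether these high scores reflect binding was not tested.

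The densest regions were of the opposite kind. The 5 with the most peaks per kb each packed 3 narrow peaks into 0.481 to 0.595 kb, and none overlapped a Snail peak. In Gpr158, a gene of a brain receptor, the scores were 59.5, 51.3 and 74.4 and the edges were 2 and 1 bp apart. In Dcdc5 they were 51.01, 57.4 and 104 with gaps of 3 and 87 bp. The other 3 lay 3.04 kb from Lypd8, 7.02 kb from Lyzl4 and 3.64 kb from Nr0b2. With gaps this small, 3 called peaks and 1 broad peak cannot be told apart from the list.

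Regions were frequent at the low-coordinate ends of some autosomes. Of the 207 Slug peaks that lay below 3.5 Mb, 56 (27.1%, 21.5 to 33.5%) were in 13 dense regions on 7 chromosomes, 4 regions each on chromosomes 16 and 17. That stretch held 0.513% of all autosomal Slug peaks. No autosomal Slug peak started before 3.00 Mb, so these peaks all lay between 3.00 and 3.5 Mb. Snail overlapped 37 of the 56 members there (66.1%, 53.0 to 77.1%) and 42 of the 151 other Slug peaks there (27.8%, 21.3 to 35.4%). None of the 13 touched a protein-coding gene, and their median mean score was 138, beside 96.9 for the other regions. Without this stretch, 22.3% (20.2 to 24.5%) of members and 11.7% (11.4 to 12.1%) of other Slug peaks overlapped Snail. No map of repeats was used here, and the part of repeats in these regions was not tested.

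By chromosome, the share of Slug peaks in dense regions ran from 2.52% (2.02 to 3.13%) on chromosome 1 and 2.61% (1.90 to 3.58%) on chromosome 14 to 5.14% (4.17 to 6.32%) on chromosome 16 and 5.42% (4.45 to 6.58%) on chromosome 17. The stretch below 3.5 Mb described above held 4 of the 25 regions on chromosome 16 and 4 of the 28 on chromosome 17. Shares by chromosome without that stretch were not computed, so the top places of these 2 may rest on it. Chromosome 11 had the most regions for its length, 33.7 per 100 Mb, and chromosome 14 the fewest, 9.86. Chromosome 11 also had the most Slug peaks per Mb, 22.1, and chromosome 14 the fewest, 11.7.

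**Figure D4:**
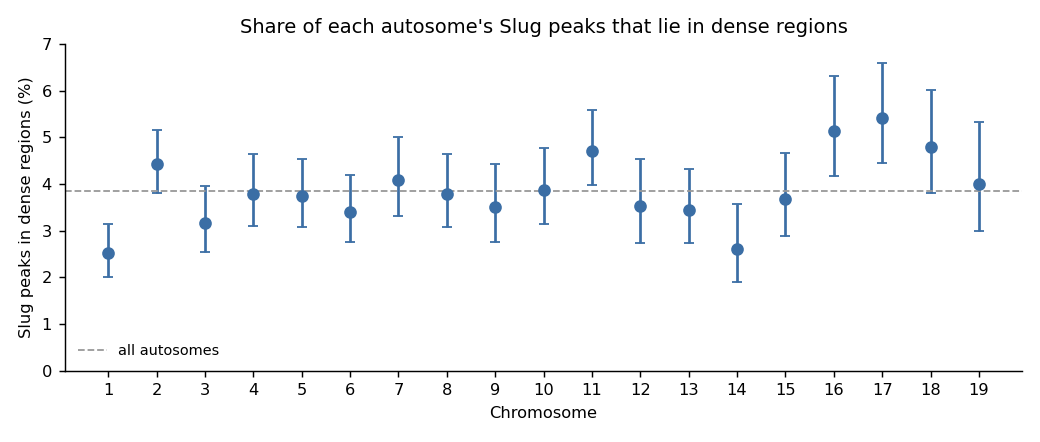
Share of the Slug peaks of each autosome that lie in dense regions, in percent (vertical axis), by chromosome; points are shares, bars Wilson 95% intervals and the dashed line the share over all autosomes, 3.85%. Chromosomes 1 and 14 sit lowest, at 2.52% and 2.61%, and chromosome 17 highest, at 5.42%. Regions below 3.5 Mb are counted, 4 each on chromosomes 16 and 17.

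Few genes had a dense region nearby. Of 20558 autosomal protein-coding genes, 275 had one within 10 kb of an end, a background share of 1.34%, and 388 had one in their span or within 10 kb of it, a share of 1.89%. A single Slug peak was common, with one within 10 kb of an end in 49.5% of these genes. The share near an end was much the same in short and long genes, at 1.19 to 1.48% over 5 classes of gene length. The share that counts the span rose to 3.82% in the longest class.

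Epithelial junction genes had 3 of 28 members with a region near an end (10.7%, 3.71 to 27.2%) and 4 of 28 when the span counted (14.3%, 5.70 to 31.5%). For genes of the same length classes the shares were 1.36% and 2.08%. Any Slug peak lay within 10 kb of an end in 25 of the 28 (89.3%), beside 49.5% of all protein-coding genes. The list was thus rich in Slug peaks of any kind, and whether dense regions exceed what that gives was not tested. The lists were chosen with earlier results of these data known, so these shares are a description only. Cdh1 encodes E-cadherin, the adhesion protein of adherens junctions. Its region at chr8:106620907-106626937 lay inside the gene, 17.6 kb from the nearer end, with scores of 163, 54.3 and 53.0. The first of these overlapped a Snail peak, and the other 2 did not. Jup encodes plakoglobin, which links cadherins to the cytoskeleton. Its region at chr11:100393878-100403204 crossed a gene end with scores of 66.5, 78.0 and 220, of which only the second, next to the end, overlapped Snail.

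Cldn4, whose start is printed above, had the most peaks in this list. Its 4 peaks at chr5:134946385-134952309 scored 79.1, 94.9, 95.2 and 124. The first 2 lay at the gene end and the others some 5 kb away, where the third overlapped a Snail peak. Ppl encodes periplakin, a linker of desmosomes and keratin filaments. Its 3 peaks at chr16:5131609-5135460 scored 115, 73.2 and 88.0, and all overlapped Snail. The first and highest met its Snail peak only at the minimum of 1 bp. These 4 genes thus had a Slug region in common and differed in how many of its peaks Snail shared.

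In the polarity list 1 of 16 genes had a region, beside a share of 1.37% near an end for genes of the same length classes. It was Llgl2, a member of the basolateral Scribble group. Its peaks at the gene end scored 101, 246 and 54.5, and the first 2 overlapped Snail. In the basal and myoepithelial list the count was 1 of 20 near an end and 2 of 20 with the span. The same-length shares were 1.36% and 2.25%. Lgr5, a stem cell receptor for R-spondins, held 3 peaks of 94.5, 124 and 83.6 inside the gene, packed into 0.763 kb. Itga6, the integrin chain of hemidesmosomes, had 3 peaks of 115, 192 and 154 at 9.11 kb outside its span. No Snail peak overlapped either region. The luminal and progenitor list and the list of epithelial transcription and splicing factors had 0 of 19 and 0 of 18. The shares for genes of the same length classes were 1.32% and 1.35% near an end. Any Slug peak lay within 10 kb of an end in 13 of these 19 genes and in 16 of these 18.

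**Figure D5:**
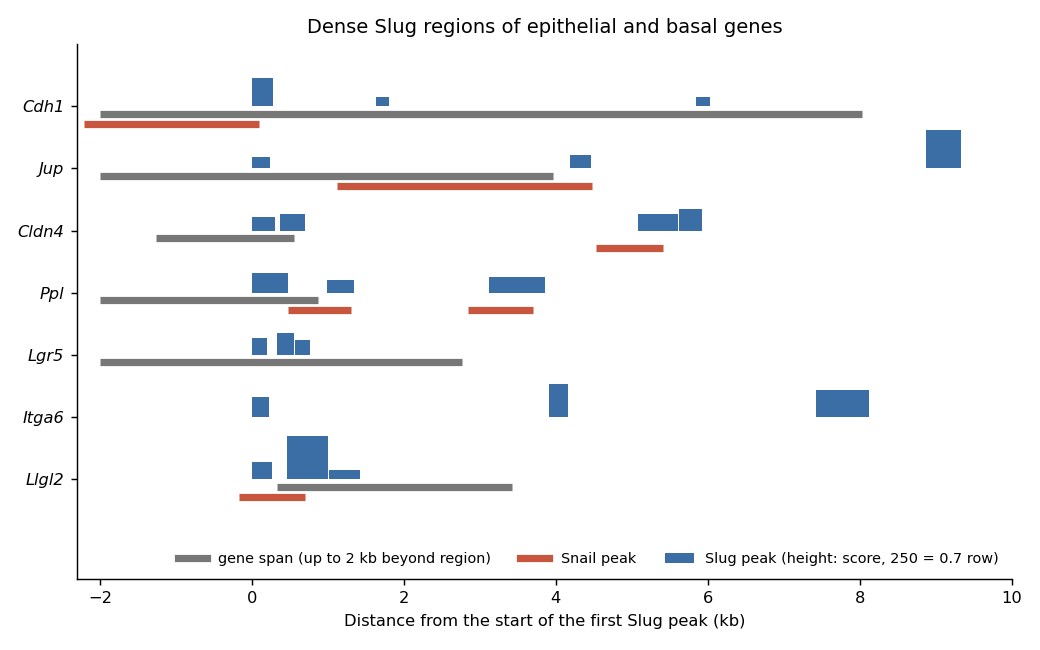
Dense Slug regions of the members of the junction, basal and polarity lists that have one, as distance from the start of the first Slug peak in kb (horizontal axis). Blue bars are Slug peaks with height in proportion to their score, grey bars the gene span where it lies within 2 kb of the region and red bars Snail peaks. Ppl has a Snail peak at all of its 3 Slug peaks, which the first meets by only 1 bp. Lgr5 and Itga6 have none.

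EMT transcription factors had 2 of 19 genes with a region (10.5%, 2.94 to 31.4%), and both are forkhead genes. For genes of the same length classes the share near an end was 1.31%. The region at Foxc2 is the one in Mthfsd, chr8:121103577-121109061, with scores of 57.6, 114 and 63.6, and its last 2 peaks lay under a Snail peak that scored 1471. The region at Foxq1, 6.14 kb outside the gene, had scores of 62.7, 58.3 and 56.2 and no Snail peak. The mesenchymal list had 0 of 30, and the list of collagens and matrix 0 of 21. Genes of the same length classes had shares near an end of 1.35% and 1.38%, so a count of 0 does not set these lists apart. Snai2 itself had no dense region within 10 kb. The nearest lay 227 kb away in Efcab1, with scores of 978, 64.2, 160 and 61.4 and no Snail peak, a region chosen after its values were seen.

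The signalling lists held single genes. For the lists in this paragraph, genes of the same length classes had shares near an end of 1.36 to 1.38%. In the TGF-beta and BMP list 2 of 27 had a region. Tgfbr3, the co-receptor betaglycan, held 50.3, 85.5 and 150 inside the gene. Acvr1, a BMP type I receptor, had 50.3, 192 and 467 at 1.96 kb outside its span, in Upp2, and the second of these overlapped Snail. The Hippo list had 1 of 22, the kinase gene Stk4, with 65.7, 135 and 65.7 across a gene end, of which the first 2 overlapped Snail. The list of receptor tyrosine kinases and ligands had 1 of 27, the EGF receptor ligand gene Tgfa, with 74.1, 83.7 and 77.6 and no Snail peak. The actin and focal adhesion list had 1 of 25, the paxillin gene Pxn, with 93.5, 56.8 and 88.4, of which the first overlapped a Snail peak.

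In the Wnt list 0 of 31 genes had a region near an end and 1 had one in its span, Tcf7l2, a transcription factor of the pathway, with scores of 63.5, 53.6 and 53.1. The Notch list and the list of AP-1 and immediate early genes had 0 of 20 each. Of the lists from other tissues, neuronal genes had 0 of 17 near an end and endothelial genes 1 of 18, Flt1. Hepatocyte genes had 0 of 20, immune cell genes 0 of 20, adipocyte genes 0 of 12 and ribosomal protein genes 0 of 24. Over the lists in this paragraph, genes of the same length classes had shares near an end of 1.22 to 1.36%. With the span the share was 2.22% for the Wnt list. The counts are too small to order the lists, since 1 gene more or less changes each share by several points.

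A second region at the same gene was rare, in 16 genes, while 372 genes had 1. Eya2, a co-activator and phosphatase of the Eyes absent family, had the most peaks. Its 2 regions inside the gene held scores of 210, 50.1, 92.3 and 157 in the first and 52.8, 54.0, 78.1 and 372 in the second. Only the 50.1 peak overlapped Snail. C1qtnf1, which encodes a secreted C1q and TNF related protein, had 7 member peaks. The highest, at 377, lay inside the gene and within 1 kb of an end of another annotated gene, not of C1qtnf1. Duxf3, Gm4981 and LOC100504180 share 7 member peaks at neighbouring gene copies, and reads there can be placed at the wrong copy.

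Some regions lay at genes outside the lists and were chosen after their values were seen. Cdkn1a, which encodes the cell cycle inhibitor p21, had peaks of 82.6, 264 and 567 at chr17:29090058-29095549, and the last 2 lay under 1 Snail peak. Etv4, an ETS factor gene, had 99.6, 442, 160 and 145, and the second overlapped Snail. Lpar5, a lysophosphatidic acid receptor gene, had 52.0, 61.2 and 221 and no Snail peak. At the histone genes H2ac8, H2bc8 and H2bc7 the scores were 81.7, 165 and 87.1, and at H4c9, H2ac11 and H2bc11 they were 77.5, 95.4 and 120. All 6 histone peaks overlapped Snail, and since these genes have near-identical copies their placement is uncertain.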

How the data were processed

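The data were 2 deposited peak lists, 1 for Slug in pBl.1G and 1 for Snail in pBl.3G, made from chromatin fixed in 1% formaldehyde, quenched with 125 mM glycine and sheared to 200 to 500 bp, per the labels' protocols. The submitters' processing notes name Bowtie, MACS 1.4.2 and mm10. The control library, caller settings and Bowtie version are not given in the sources used. The value deposited with each peak's position is the score of the authors' peak caller, which MACS 1.4 by convention derives from the peak's p-value, though its scale is not stated. No counts were given, so depth is unknown, no peak has a height, and with 1 library per factor there were no replicates to compare.

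Peaks were chained on autosomes as the opening describes, with starts converted to 1-based positions, using matplotlib 3.10.9, numpy 2.4.6, pandas 2.3.3 and scipy 1.17.1 under Python 3.11.15. Chaining and overlap were tested on simulated data. Genes came from a RefSeq table of GRCm38.p6 without strand or exons, so both gene ends were used. It held 333 rows with coordinates of other scaffolds, which were left out. Strand came from RefSeq promoter windows. The 21 gene lists held 460 memberships, of which 454 were matched on autosomes. The members and lists were chosen with earlier results of these data known. Regions were named by rule: the 10 with the most peaks, the 5 with the highest mean score, the 5 with the most peaks per kb and the 5 with the most members overlapping Snail. Genes were named as the 2 members of each list whose region had the most peaks and the 5 genes with the most regions, and further list members make up stated counts. The result for 1 list gene is not reported here. Shares have Wilson 95% intervals. Alternatives changed the chain distance, the fewest peaks, score minimums, merging of close peaks, the overlap and the gene window.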

Additional observations from a re-analysis of the deposited data

Results flagged for a closer look

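Dense Slug chains were also present on the sex chromosomes, which the rule for the regions leaves out and on which no comparison above rests. By the same rule chromosome X held 5 regions, with 23 of its 1158 Slug peaks and at most 7 peaks in a region. Chromosome Y held 3 regions, with 52 of its 131 Slug peaks, and 1 of them was a chain of 41 peaks. On the autosomes the longest chain had 7. These values have no control sample beside them.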

How the results depend on the processing

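Members stayed above other Slug peaks in each alternative for which Snail overlap was recomputed. This difference was the only result that could reverse. Of all recomputed values, 38 moved outside the interval of the main result, or beyond a set factor for the number of regions, and 27 did not. A chain distance of 2.5 kb gave 222 regions with 1.74% of the peaks, Snail at 33.9% of members (difference 22.0 points), 0.501% of genes near a region and 57.2% of regions touching a gene. At 10 kb these were 1483, 12.5%, 19.1% (7.84 points), 5.04% and 72.2%. With at least 4 peaks there were 75 regions with 0.796% of the peaks, 57.3% of them with a Snail peak, Snail at 36.8% of members (24.7 points), 0.170% of genes and 57.3% touching a gene. With Slug scores of at least 100 there were 49 regions with 0.973% of the peaks, 67.3% with a Snail peak, Snail at 50% of members (34.6 points) and 0.0827% of genes. Merging peaks 200 bp or less apart gave 318 regions, 2.54% of the peaks, Snail at 19.2% of members (7.45 points) and 0.992% of genes. A reciprocal overlap of 50% gave 5.67% of members (1.98 points). Snail scores of at least 100 gave 29.7% of regions and 16.4% of members (8.43 points). With protein-coding ends alone 6.71% of members lay near an end. Within 1 kb, 0.501% of genes had a region, and with the gene span counted 1.89%. Including chromosome X gave 490 regions, leaving out the region with peaks among the 100 highest 484, and leaving out regions below 3.5 Mb, an alternative chosen after seeing the data, 472. Each share computed under these 3 stayed inside its interval. The cause of each change was not tested.

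No paired analysis was possible because each factor had 1 library and no result comes from a test between replicates. Leaving out a replicate was not possible for the same reason. The unknown depth limits how far a missing Snail peak can be read: it says that none was called, not that Snail was absent.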
